A study of Mus with 6 samples.

Results

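Protocadherins are cell surface proteins of the cadherin superfamily, and the mouse makes them from gene clusters and from genes that stand alone. The 34 protocadherin genes described here were all symbols beginning with Pcdh that stood as the only gene symbol of at least 1 row in the annotation of the array, out of 19938 genes measured by that rule. They were 22 Pcdhb genes of the beta cluster and 12 non-clustered genes, and where a gene had several rows the brightest, by its mean over the 6 arrays, was used. The Pcdha group had 0 members, because its only row carried 14 alpha symbols at once, and the Pcdhg group had 0 members, because 0 rows carried a gamma symbol in the annotation used here.

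The hippocampus was dissected from male C57BL/6JJmsSlc mice aged 10 to 11 weeks. Forced swim stress (FSS) mice had swum in a cylinder of water, 25 cm deep and at 25 °C, for 11 min daily on 5 days. They were compared with control mice that had not swum, at 3 mice in each group and 1 GeneChip Mouse Gene ST array for each mouse. In the paper's schedule a tail suspension test came after the swims, and the hippocampus was taken on a later day. A further FSS mouse named in the methods was not analysed here. The deposited values were log2 levels made by robust multi-array averaging (RMA), which subtracts background, equalises the arrays and summarises the probes of a transcript cluster. Whole hippocampus was measured, so fewer cells of a type and less RNA per cell cannot be told apart.

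In the clusters, each neuron switches on its own small combination of isoforms, and cells whose combinations match recognise each other through like-to-like binding. This recognition is known for keeping the dendrites of a neuron from overlapping and for spacing axons. Choice of an isoform rests on looping between a promoter and distant enhancers through the insulator protein CTCF and cohesin. The alpha and gamma isoforms join a variable exon to constant exons that all isoforms of the cluster share, whereas each beta gene is made from a single exon and has no shared tail. The non-clustered proteins, most of them of the delta-1 and delta-2 classes, act in cell adhesion, axon growth and synapse remodelling.

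The arrays had medians within 0.032 of each other on the log2 scale, but the SD over all rows was 2.26 to 2.27 in FSS mouse 1, FSS mouse 3 and control mouse 3 and 2.22 to 2.23 in FSS mouse 2, control mouse 1 and control mouse 2. Markers of hippocampal granule and pyramidal neurons were measured for 10 of 10 listed genes, whose mean levels lay between percentiles 62.1 and 96.0 of all rows. At an unadjusted p under 0.05 from limma, 1 of these 10, 3 of 5 astrocytic, 1 of 4 microglial, 1 of 7 neocortical, 1 of 6 choroid plexus and 1 of 6 meningeal markers were higher in FSS mice. Of the interneuron (6), oligodendrocyte (4) and endothelial (4) markers measured, 0 passed, and 0 markers of any list were lower. Their part in the levels of the protocadherins was not tested.

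None of the 34 protocadherins was called in FSS mice against control mice. At an unadjusted p under 0.05 from limma, 0 were higher and 0 were lower. Beside this, 5.14% of the 21789 rows with 1 gene symbol passed, 2.49% higher and 2.66% lower in FSS mice. Among 34 genes a count of 0 is near these shares and sets the members apart from other rows in no way. The study's thresholds, a log2 fold change over 0.5 in size with an unadjusted p under 0.05, were met by 0 members and by 0.0688% of all rows. Adjusted over all rows by the Benjamini-Hochberg method, the p-values of the members from limma were 0.943 to 0.996. The log2 fold changes (FSS minus control) ran from -0.20 for Pcdhb9 to 0.16 for Pcdhb8, with 18 members above 0 and 16 below.

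In the main fit, the intervals bound how large a change in array level could have been missed. For 34 of 34 members the 95% interval of the log2 fold change lay inside -0.5 to 0.5, as it did for 96.5% of all rows, and the outermost bounds among them were -0.44 and 0.37, or 0.738-fold and 1.29-fold. These intervals hold for 1 gene at a time. For 11 of the 12 non-clustered genes and 9 of the 22 Pcdhb genes the interval also lay inside -0.25 to 0.25, against 65.9% of all rows. The Pcdhb rows were the less precise ones, with a median standard error of 0.080, against 0.063 for the non-clustered genes and 0.062 for all rows.

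**Figure D1:**
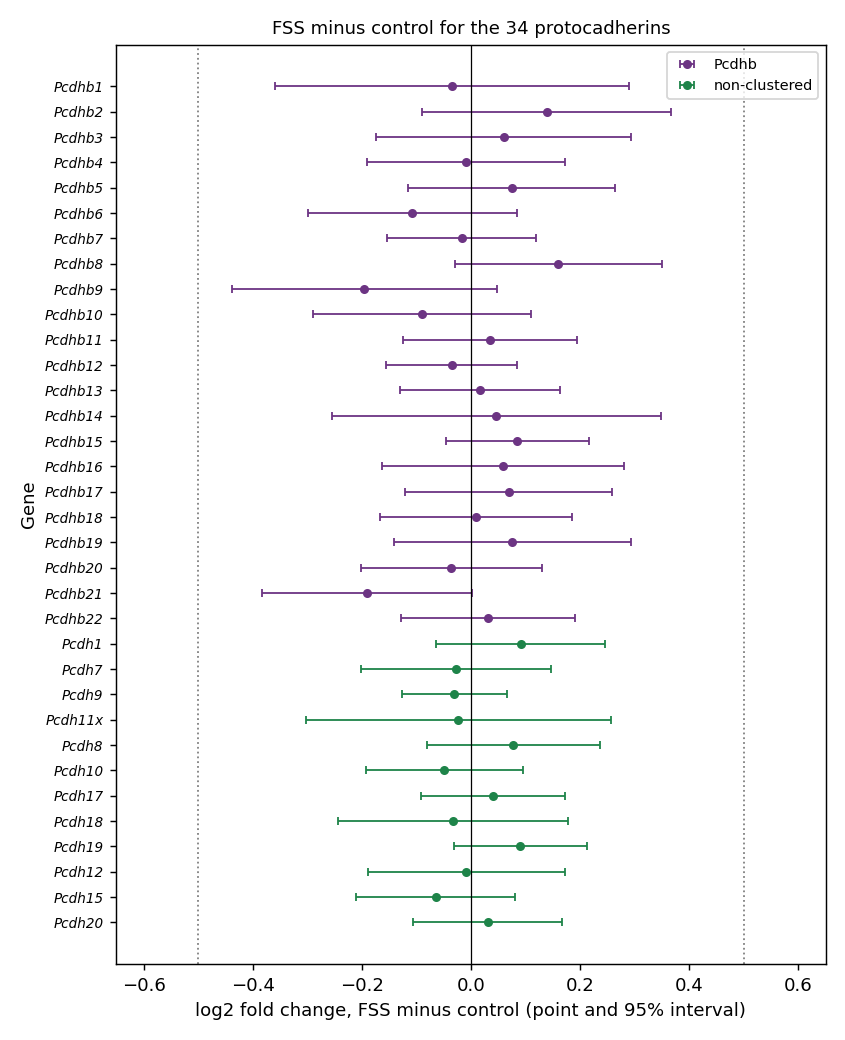
Log2 fold change (x axis, FSS minus control) of each of the 34 protocadherins (y axis), with the 22 Pcdhb genes in their order along the cluster above the 12 non-clustered genes. Points are estimates and bars 95% intervals from limma, dotted lines mark -0.5 and 0.5, and every bar lies between them and includes 0.

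The beta cluster lies on chromosome 18 in GRCm38.p6, and its 22 genes are numbered in the order in which they lie there. Their median log2 fold change was 0.024, beside 0.0049 over all rows, with 13 genes above 0 and 9 below. The sign changed back and forth along the cluster, and the longest stretch of 1 sign was that of the 7 genes from Pcdhb13 to Pcdhb19, all above 0, at 0.0097 for Pcdhb18 to 0.085 for Pcdhb15. Of these 7, none passed the test. On the arrays of wider SD, those of FSS mouse 1, FSS mouse 3 and control mouse 3, each also averaged higher. The differences from the narrower arrays were 0.075 (Pcdhb15) to 0.23 (Pcdhb14) on the log2 scale. What part the SD of the arrays plays in this stretch was not tested. In the Pcdhb group 0 genes had all FSS mice above all control mice, and 0 had all FSS mice below, beside 6.02% and 4.25% of all rows. Among 22 genes these counts are near the shares and are no result about the group.

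The 5 Pcdhb genes with a fold change over 0.1 in size on the log2 scale, of which Pcdhb2, Pcdhb6 and Pcdhb21 were singled out after their values were seen, went both ways. Pcdhb8 had log2 levels of 7.66, 7.54 and 7.56 in FSS mice, against 7.45, 7.27 and 7.56 in control mice. FSS mouse 1 was the highest and control mouse 2 the lowest, and control mouse 3 lay within the range of the FSS mice. The fold change was 0.16 on the log2 scale (95% interval -0.029 to 0.35), or 1.12-fold, with an adjusted p of 0.943 from limma.

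Pcdhb2 had log2 levels of 7.66, 7.54 and 7.82 in FSS mice, against 7.45, 7.45 and 7.70 in control mice. Control mice 1 and 2 lay below all others, but control mouse 3 was above FSS mice 1 and 2, and the fold change of 0.14 on the log2 scale had a 95% interval from -0.090 to 0.37. In the other direction, Pcdhb9 had levels of 6.80, 6.79 and 7.08 in FSS mice and 7.05, 6.97 and 7.23 in control mice. FSS mice 1 and 2 were below every control mouse, while FSS mouse 3 fell among them, and the fold change of -0.20 on the log2 scale, or 0.873-fold, had a 95% interval from -0.44 to 0.048 and an adjusted p of 0.943 from limma.

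Pcdhb21 came nearest to the threshold of all members, with an unadjusted p of 0.0513 from limma. Its log2 levels were 6.92, 7.11 and 6.83 in FSS mice, against 7.08, 7.12 and 7.23 in control mice. FSS mice 1 and 3 were below every control mouse, and FSS mouse 2 lay between control mice 1 and 2. The fold change was -0.19 on the log2 scale (95% interval -0.38 to 0.0014), and the adjusted p was 0.943 from limma.

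Pcdhb6 had log2 levels of 7.86, 7.59 and 7.67 in FSS mice, against 7.85, 7.72 and 7.87 in control mice. FSS mouse 1 was level with control mouse 1, and the fold change was -0.11 on the log2 scale (95% interval -0.30 to 0.084). Pcdhb1, the first gene of the cluster, had log2 levels of 5.62, 5.80 and 5.51 in FSS mice, against 5.70, 5.92 and 5.41 in control mice. Its row was the dimmest of the members, at percentile 18.3 of all rows by mean level, and the least precise, with a standard error of 0.14 around a log2 fold change of -0.035. The 16 other Pcdhb genes had log2 fold changes between -0.090 (Pcdhb10) and 0.085 (Pcdhb15), and by mean level 16 of the 22 rows lay below the median of all rows, so that most were read in the lower part of the range of the array.

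With 1 mouse left out, single Pcdhb genes passed an unadjusted p under 0.05, and which ones depended on the mouse. Leaving out control mouse 3 made Pcdhb2 and Pcdhb8 higher in FSS mice, with log2 fold changes of 0.22 each (adjusted p of 0.742 and 0.716 from limma), and these were the only members among the 6.61% of all rows that passed. Leaving out FSS mouse 1 made Pcdhb6 and Pcdhb10 lower, with log2 fold changes of -0.18 each, where 3.71% of all rows passed. Without FSS mouse 2 Pcdhb21 was lower (log2 fold change -0.27), beside 7.6% of all rows, and without FSS mouse 3 Pcdhb9 was lower (log2 fold change -0.29), beside 4.12% of all rows. Without control mouse 1 or control mouse 2, 0 members passed, beside 5.54% and 3.79% of all rows. With at most 2 of the 34 members passing in a fit, and Pcdh1 the other one without FSS mouse 3, these counts are no result about the members beside the shares of all rows. The adjusted p of every member stayed at 0.657 or above in these 6 fits.

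**Figure D2:**
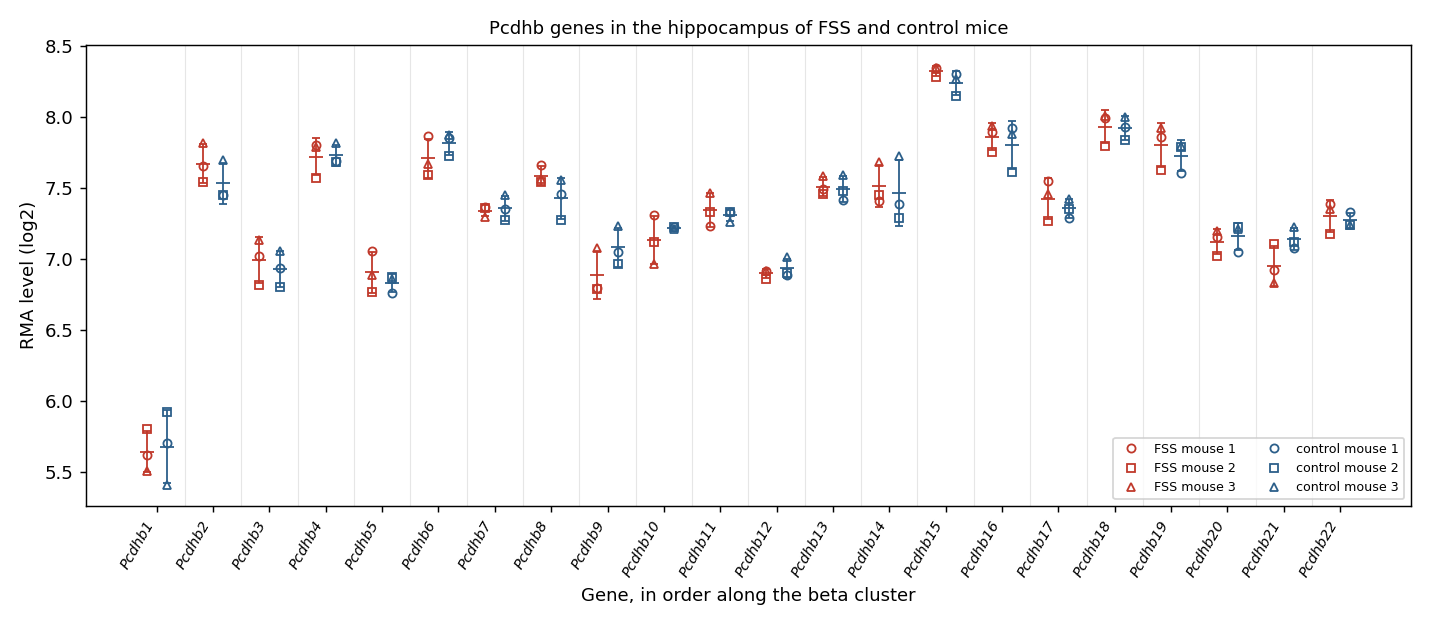
Log2 RMA level (y axis) of the 22 Pcdhb genes in their order along the beta cluster (x axis). Open symbols are mice (3 FSS in red, 3 control in blue, beside each other), bars give the mean ± SD of 3 mice, and for each gene the symbols of both groups overlap.

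The Pcdhb levels varied between mice within both groups. Their mean log2 level was 7.38, 7.27 and 7.38 in FSS mice 1, 2 and 3, and 7.32, 7.30 and 7.40 in control mice 1, 2 and 3. Control mouse 3 had the highest level of 8 of the 22 genes, FSS mouse 3 of 7 and FSS mouse 1 of 5, whereas FSS mouse 2 had the lowest level of 8 and control mouse 2 of 7. The mice with high Pcdhb levels were those 3 whose arrays had the wider spread of values over all rows, and they came from both groups.

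The 3 arrays of wider spread were compared with the 3 of narrower spread after the data were seen. All genes were read on the same 6 arrays, so they are not replicates of this comparison. On the wider arrays 18 of the 22 Pcdhb genes averaged higher, with a median difference of 0.10 on the log2 scale. Over all rows 50.8% did, and of the 8990 rows with mean levels in the range of the Pcdhb rows 38.7% did. Of the non-clustered genes 10 of 12 averaged higher on the wider arrays, with a median difference of 0.037 on the log2 scale. Their levels did not follow the spread array by array. The median deviation from the gene means was 0.11 in FSS mouse 1, but -0.031 in FSS mouse 3 and -0.014 in control mouse 3. On the narrower array of control mouse 2 it was 0.042. Rows in the range of the mean levels of the non-clustered genes were not counted. After scaling to equal SD or a further quantile normalization 8 of 12 were higher, beside 52.4% and 49.7% of all rows. In 9 Pcdhb genes and 0 of the 12 non-clustered genes each of the wider arrays was above each of the narrower ones. The 9 were Pcdhb2, Pcdhb3, Pcdhb4, Pcdhb8, Pcdhb12, Pcdhb13, Pcdhb17, Pcdhb18 and Pcdhb19, with differences of 0.065 to 0.24, beside 10.5% of all rows and 6.02% of those in the same range of levels. With the arrays scaled to equal SD there were 10 such Pcdhb genes, beside 9.55% of all rows. After a further quantile normalization there were 9, beside 7.41% of all rows. For Pcdhb3 the wider arrays had log2 levels of 7.02 (FSS mouse 1), 7.14 (FSS mouse 3) and 7.06 (control mouse 3), and the narrower ones 6.82 (FSS mouse 2), 6.94 (control mouse 1) and 6.80 (control mouse 2).

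Within the wider arrays the median log2 fold change of the Pcdhb genes was 0.0093 (2 FSS mice, 1 control mouse). Within the narrower ones it was -0.040 (1 FSS mouse, 2 control mice), and in a fit with the spread as a block it was -0.017. With the spread as a block, Pcdhb9 was lower in FSS mice (log2 fold change -0.26, standard error 0.086, unadjusted p = 0.0252 and adjusted p = 0.804 from limma), and it was the only member called in that fit, in which 5.92% of all rows passed. Whether the spread of an array or the mouse itself sets these levels was not tested. Beta genes resemble each other in sequence, and how far their probes also bind transcripts of another member was not tested.

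**Figure D3:**
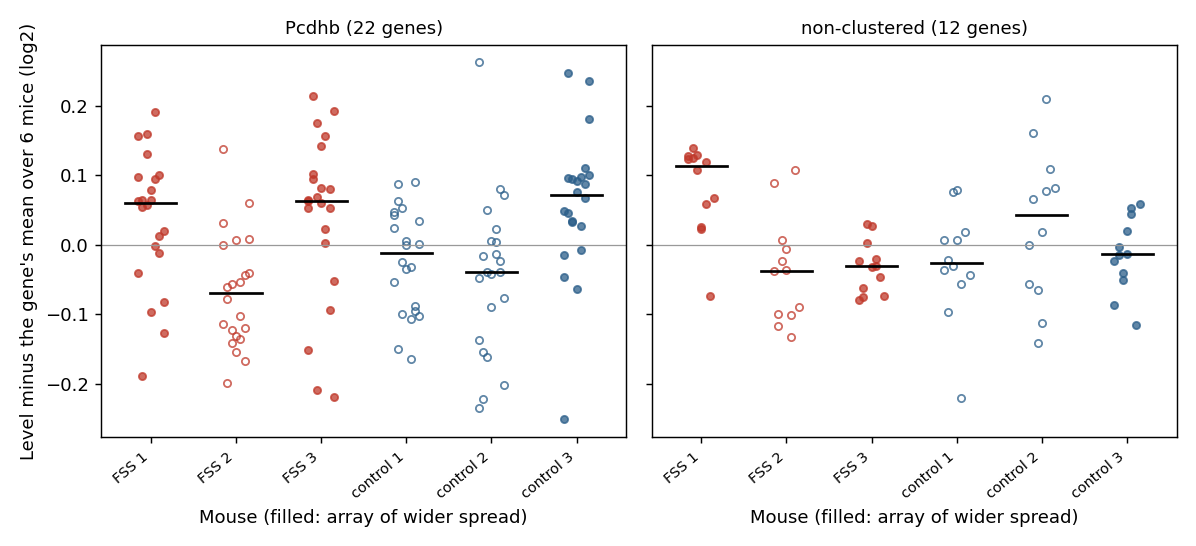
Level minus the mean of the gene over 6 mice (y axis, log2) for each mouse (x axis), in the Pcdhb genes (left, 22 points a mouse) and the non-clustered genes (right, 12 points a mouse). Filled points are arrays of wider spread and black lines are medians, which for Pcdhb are 0.060 and 0.064 in FSS mice 1 and 3, -0.070 in FSS mouse 2, 0.072 in control mouse 3, and -0.012 and -0.039 in control mice 1 and 2.

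The single row of the alpha cluster, annotated to 14 alpha symbols, names no isoform and was not a member. Its log2 levels were 7.70, 7.65 and 7.63 in FSS mice, against 7.63, 7.67 and 7.67 in control mice. The groups overlapped throughout, and in a fit over all 28944 rows the log2 fold change was 0.0023 (95% interval -0.10 to 0.11), or 1.00-fold. Single alpha isoforms, the C-types among them, could not be read from it, since 1 row gives 1 level for all 14 symbols. Which isoforms its probes read was not examined, and an opposite shift of some of them might not show.

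The 12 non-clustered genes had log2 fold changes from -0.064 (Pcdh15) to 0.091 (Pcdh1 and Pcdh19), a median of -0.015, 5 genes above 0 and 7 below, and 0 of them passed the test. By mean level, 10 of the 12 rows lay above the median of all rows, and Pcdh9 reached percentile 96.6. FSS mouse 1 had the highest level of 6 of these genes and control mouse 2 of 5, while FSS mouse 2 had the lowest level of 6. The mean log2 level over the 12 genes was 9.03, 8.91 and 8.91 in FSS mice and 8.92, 8.97 and 8.93 in control mice, so that FSS mouse 1 stood above the rest.

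Of the delta-2 class, Pcdh19 was the only member of the 34 in which all FSS mice exceeded all control mice, and for 0 members all FSS mice lay below, beside 6.02% and 4.25% of all rows. Pcdh19 is an X-linked gene whose mutations in humans cause an epilepsy of females, and its protein works together with N-cadherin. Its log2 levels were 9.54, 9.39 and 9.44 in FSS mice, against 9.38, 9.34 and 9.37 in control mice. FSS mouse 2 exceeded control mouse 1 by a narrow margin, and the spread was 0.077 in FSS mice and 0.018 in control mice (SD, n = 3 each). The fold change was 0.091 on the log2 scale (95% interval -0.031 to 0.21), or 1.07-fold, with an adjusted p of 0.943 from limma and an exact two-sided permutation p of 0.1, the smallest that 3 mice against 3 allow.

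Pcdh8, also called arcadlin, is induced by neuronal activity and draws N-cadherin from the surface of synapses. Its log2 levels were 7.84, 7.74 and 7.73 in FSS mice, against 7.81, 7.59 and 7.68 in control mice. Control mouse 1 was above FSS mice 2 and 3, and the fold change was 0.078 on the log2 scale (95% interval -0.081 to 0.24). Pcdh10, which takes part in the activity-dependent removal of synapses, had log2 levels of 9.61, 9.45 and 9.52 in FSS mice, against 9.49, 9.63 and 9.60 in control mice. The groups overlapped, with a log2 fold change of -0.049 (95% interval -0.19 to 0.095).

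Pcdh17, which acts at presynaptic sites and along growing axons, had log2 levels of 10.05, 9.89 and 9.91 in FSS mice, against 9.89, 9.93 and 9.91 in control mice. Only FSS mouse 1 stood apart, and the log2 fold change was 0.041 (95% interval -0.091 to 0.17). Pcdh18, the other delta-2 gene measured, had log2 levels of 7.48, 7.26 and 7.28 in FSS mice, against 7.26, 7.52 and 7.34 in control mice. FSS mouse 1 and control mouse 2 were the 2 highest, as they were for Pcdh10, and the log2 fold change was -0.033 (95% interval -0.24 to 0.18).

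Among the delta-1 genes, Pcdh9 was the most tightly measured of all members, with a standard error of 0.040. Its log2 levels were 11.36, 11.30 and 11.31 in FSS mice, against 11.35, 11.36 and 11.36 in control mice, and the log2 fold change was -0.030 (95% interval -0.13 to 0.066). Its second row gave a log2 fold change of -0.038, close to the first. Pcdh7 had log2 levels of 9.14, 8.88 and 8.94 in FSS mice, against 8.98, 9.07 and 9.00 in control mice. FSS mice held both the highest and the lowest level, around a log2 fold change of -0.027 (95% interval -0.20 to 0.15).

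Pcdh11x, an X-linked delta-1 gene, had log2 levels of 9.47, 9.21 and 9.32 in FSS mice, against 9.13, 9.56 and 9.39 in control mice. Control mice held both extremes, and it had the widest interval of the non-clustered genes, with a log2 fold change of -0.023 (95% interval -0.30 to 0.26). Pcdh1, a delta-1 gene best known from epithelia, had log2 levels of 8.33, 8.29 and 8.12 in FSS mice, against 8.21, 8.14 and 8.11 in control mice. FSS mice 1 and 2 were above every control mouse and FSS mouse 3 was not, and the log2 fold change was 0.091 (95% interval -0.063 to 0.25). Without FSS mouse 3 the log2 fold change was 0.15 and passed the unadjusted threshold, beside 4.12% of all rows (adjusted p = 0.999 from limma).

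Of the remaining genes, Pcdh12 encodes an adhesion protein of endothelial cells, and its row was the dimmest of the non-clustered ones, at percentile 38.7 of all rows. It had log2 levels of 6.86, 7.04 and 6.89 in FSS mice, against 6.96, 7.05 and 6.82 in control mice. The groups overlapped and the log2 fold change was -0.0080 (95% interval -0.19 to 0.17), beside 0 of 4 endothelial markers past the threshold. Pcdh15, part of the tip links of sensory hair cells in the inner ear, had log2 levels of 8.04, 7.88 and 7.90 in FSS mice, against 7.93, 8.05 and 8.03 in control mice. Its log2 fold change was -0.064 (95% interval -0.21 to 0.082), the most negative of the non-clustered genes, and its second row gave -0.036. Pcdh20 had log2 levels of 10.60, 10.57 and 10.60 in FSS mice, against 10.65, 10.46 and 10.56 in control mice. The FSS mice lay close together inside the range of the control mice, with a log2 fold change of 0.031 (95% interval -0.10 to 0.17).

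**Figure D4:**
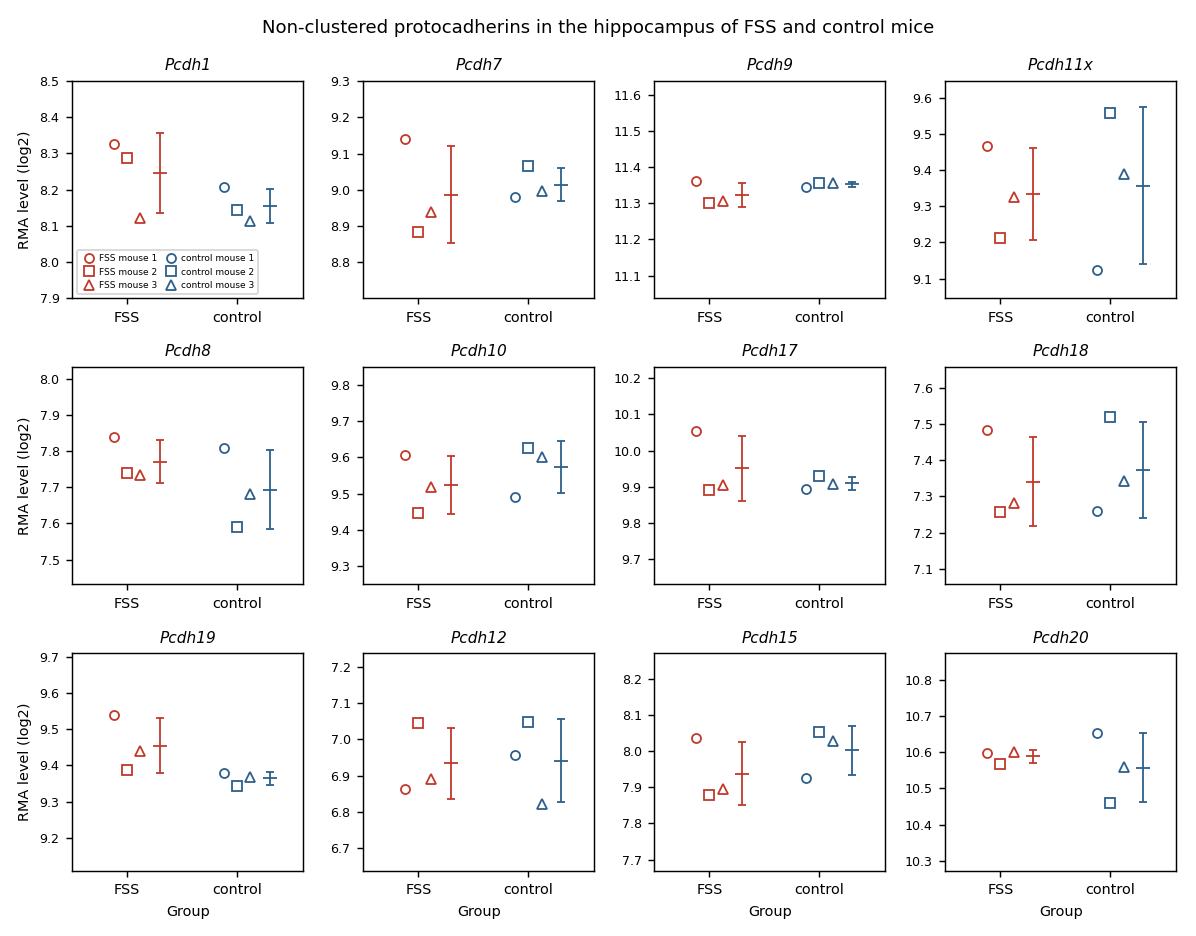
Log2 RMA level (y axis) by group (x axis) of the 12 non-clustered protocadherins (delta-1 genes, then delta-2 genes, then others). Each panel is 1 gene and spans the same 0.6 on the log2 scale around its mean, symbols are mice, bars give the mean ± SD of 3 mice, and only in Pcdh19 are all 3 FSS mice (9.39 to 9.54) above all 3 control mice (9.34 to 9.38).

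Genes related to protocadherins by function, family or position were counted in the same fit, from lists chosen with earlier results of these data known. Of 18 measured regulators of the clusters, among them CTCF, the cohesin subunits and loader, the silencers Smchd1 and Setdb1 and the DNA methyltransferase Dnmt3b, 0 were higher and 0 were lower at an unadjusted p under 0.05 from limma (median log2 fold change 0.0038, range -0.11 to 0.084). Of 17 measured intracellular partners and processing enzymes, including the WAVE complex, the kinases Fyn and Ptk2b and the sheddase Adam10, 0 passed in either direction (median 0.025). Of 27 other cadherins, catenins and large cadherins of the Fat, Dachsous and Celsr kinds, 0 passed (median 0.0025). Likewise 0 of 15 genes that lie beside the clusters on the same chromosome passed (median 0.029), beside 5.14% of all rows.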

How the data were processed

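RNA from the hippocampus of 3 FSS and 3 control mice was hybridised to 1-colour Affymetrix arrays. The authors deposited log2 values, which they had computed from the scanner files by RMA in the Affymetrix Expression Console. The annotation gave 1 symbol to 21789 of the 28944 rows, several to 1621 and none to 5534. The symbols of all 34 members matched RefSeq genes of GRCm38.p6, used for names, chromosome and gene order.

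Differences (FSS minus control) were estimated by limma 3.58.1 under R 4.3.3 without covariates, using lmFit and eBayes on the 21789 rows, and the step was checked on simulated data. Members were called at an unadjusted p under 0.05. Named were members that passed, the largest rise and fall of each group and every non-clustered gene. The members, lists and rules were chosen with earlier results of these data known. The number of arrays limits the precision. Correlations of deviations were -0.048, 0.145 and 0.239 for same-numbered mice and -0.259 to 0.131 for the other combinations. For FSS mice 2 and 3 the same-numbered control mouse gave the highest value. In both cases the arrays of these mice were also alike in spread, narrower for number 2 and wider for number 3. FSS mouse 2 gave 0.131 with control mouse 1, also of narrower spread, and -0.259 with control mouse 3. Whether number or spread underlies these values was not tested. The sample titles name no pairs, so the main fit did not pair the mice, and a fit with the replicate number as a block is given below. Other tests, scalings and filters and leaving out each mouse were tried.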

Additional observations from a re-analysis of the deposited data

How the results depend on the processing

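No protocadherin passed an adjusted p of 0.05 or the study's thresholds under any alternative. By the methods' t-test, with all rows in the fit, with the mean of a gene's rows, without dim rows (16 members left) and after a further quantile normalization 0 members passed an unadjusted p under 0.05. The shares of everything tested that passed were, in the same order, 5%, 4.96%, 5.22%, 6.59% and 5.4%. With a trended and robust variance, array weights or arrays scaled to equal SD, 1 Pcdhb gene was lower, each time Pcdhb21, beside 5.62%, 6.64% and 5.31% of all rows in these 3 fits. With the replicate number as a block, 1 Pcdhb gene was higher (Pcdhb2) and 1 lower (Pcdhb9), and 6.86% of all rows passed. With the array spread as a block, added after the data were seen, 1 was lower (Pcdhb9), beside 5.92%. Without each mouse in turn, 0 to 2 Pcdhb genes were higher, 0 to 2 lower, and 0 to 1 non-clustered genes higher, beside 3.71% to 7.6% of all rows. The cause of these changes was not tested. Over those 6 fits the median log2 fold change ran from -0.0099 to 0.071 for Pcdhb and from -0.030 to 0.033 for the non-clustered genes.

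Of the 77 genes in the related lists, 1 was lower by the methods' t-test, 3 were higher and 1 lower with the trended variance, 1 higher and 1 lower with array weights, either other scaling, without dim rows or with the spread as a block, and 1 higher with the replicate block. Without each mouse in turn, 0 to 3 were higher and 0 to 2 lower. Of all rows 5% passed by the methods' t-test, 3.71% to 7.6% without a mouse and 5.31% to 6.86% in the other fits named.

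Several small fold changes turned their sign. Of the 34 members, 2 did so with array weights, 1 after a further quantile normalization and 6 with the spread as a block. Leaving out each mouse in turn changed the sign of 1 to 9 members. Values follow only for the non-clustered genes, Pcdhb1 and the 5 Pcdhb genes with fold changes over 0.1 in size, so other Pcdhb genes also turned. The log2 fold change of Pcdh11x was 0.024 with array weights, and with the spread as a block that of Pcdh12 was 0.050 and that of Pcdhb1 0.071. Without each mouse in turn, it ranged from -0.10 to 0.025 for Pcdh7, from -0.068 to 0.045 for Pcdh12, from -0.011 to 0.070 for Pcdh17, from -0.10 to 0.039 for Pcdh18, from -0.018 to 0.078 for Pcdh20, from -0.14 to 0.077 for Pcdh11x and from -0.17 to 0.087 for Pcdhb1. With 3 arrays in each group, changes as small as these could not be told from the spread between mice, and 16 of the 22 Pcdhb rows lay below the median level of all rows.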
